A study of Homo sapiens with 9 samples.

Results

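The aryl hydrocarbon receptor (AHR) and 6 genes tied to it were followed in a neuroendocrine esophageal carcinoma cell line during exposure to an inhibitor of EZH2, the enzyme of Polycomb repressive complex 2 that methylates histone H3. The 7 genes are the receptor AHR, its partner ARNT, its repressor AHRR, the target genes CYP1A1, CYP1B1 and TIPARP, and the quinone reductase NQO1. They were chosen by symbol for these roles, with earlier results from the same counts known, out of 35762 genes in the table of estimated counts. All 7 passed the filter on low counts, which left 15345 genes for testing, and the lowest count of any of the 7 in a library was 8. Their fold changes and adjusted p-values are therefore given as descriptions of where each gene stood in the fit of the whole table.

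The cells were TYUC-1, a cancer cell line grown in suspension in DMEM/F12 with 10% serum. Poly-A RNA was sequenced on day 0, day 3 and day 6, with 3 libraries described as biological replicates on each day and 9 libraries in all. All 9 libraries carry the treatment label EPZ-6438, an EZH2 inhibitor also known as tazemetostat, and the treatment protocol names 2 uM EPZ-6438 or DMSO, the solvent. Whether the day 0 cells received DMSO is not stated, and no vehicle library of day 3 or day 6 was analysed here, so the inhibitor and the days in culture cannot be told apart. The study used 1 cell line, and the labels do not say whether the replicates came from separate cultures, so the p-values measure the spread between these libraries.

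AHR is a ligand-activated transcription factor of the bHLH-PAS family. It rests in the cytosol in a complex with the chaperone HSP90 and its cochaperone p23, the product of PTGES3. On binding dioxin-like pollutants, dietary indoles or tryptophan metabolites such as kynurenine it enters the nucleus, pairs with ARNT and binds the xenobiotic response element (XRE), whose core is GCGTG. Its best known targets are the cytochrome P450 genes CYP1A1 and CYP1B1, whose products oxidise polycyclic aromatic hydrocarbons and oestrogens. AHRR and TIPARP are targets that act back on the receptor: AHRR competes for ARNT, and TIPARP adds ADP-ribose to AHR and promotes its loss.

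The libraries held 21638874 to 31235055 estimated counts, so that 3 counts corresponded to between 0.098 and 0.141 CPM, the counts scaled to a common library size. Day 0 replicate 2 stood apart: its estimated counts differed from those of the other day 0 libraries with a chi-square of 69.5 and 58.5 per gene, against 3.9 to 21.3 for every other pair within a day. Markers of the line's labelled origin were partly present. Of the neuroendocrine markers 7 of 10 passed, with sums of 483.4 to 536.1, 545.1 to 551.6 and 541.6 to 601.6 CPM on days 0, 3 and 6, while CHGA, the secretory granule protein chromogranin A, was at 0 in all 9 libraries. All 5 epithelial markers passed the filter, with summed levels of 1656.7 to 1892.9 CPM on day 0, 1520.6 to 1612.6 CPM on day 3 and 1701.4 to 1857.2 CPM on day 6. Of the leukocyte markers 6 of 11 passed, with sums of 489.9 to 644.6, 349.4 to 365 and 329.5 to 332.2 CPM on days 0, 3 and 6, nearly all of it LYZ, and CD3D, MS4A1 and NKG7 were at 0. Of the fibroblast markers 4 of 9 passed, with sums of 55.4 to 60.1, 78 to 83.8 and 73.7 to 80.8 CPM, most of it PDGFRA, and THY1 at 0. Within that list COL1A1, a collagen chain, averaged 9.53 ± 1.06 CPM on day 6 and 0.492 ± 0.145 CPM on day 0 (SD, n = 3 each, 19.6-fold, adjusted p = 2.05e-08 by edgeR), and PDGFRB was 3.4-fold higher on day 6 (adjusted p = 0.00181). Of the endothelial markers 3 of 7 passed, with sums of 2.49 to 3.4, 5.13 to 5.85 and 9.28 to 12.6 CPM, most of it TEK, which was 4.55-fold higher on day 6 than on day 0 (adjusted p = 1.4e-06 by edgeR), and CLDN5 at 0. The part of these marker levels in the results was not tested, and fewer cells of a type and less RNA per cell cannot be told apart in such bulk libraries. Of the Polycomb genes, EZH2 averaged 150.3 ± 8.46 CPM on day 6 and 193 ± 3.95 CPM on day 0 (SD, n = 3 each). Of the 4 core genes of the complex, 3 were called lower on day 6 against day 0, where 25.7% of all genes tested were.

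The XRE cores near the start sites are shown because GCGTG is the core of the element through which AHR and ARNT are known to reach their targets. RefSeq promoter windows of 250 bases before a start site (GRCh38.p14) were matched for 6 of the 7 genes, giving 9 windows, since some genes have more than 1 start. The core GCGTG, searched on both strands, occurred 6 times, in 4 windows of 3 genes, against 32.2% of 35116 windows of the same length that held it. Capitals mark the core, which reads CACGC where it lies on the strand opposite to the gene.
CYP1A1, 57 bases before the start, chr15:74725568-74725597, minus strand: ccagggaaggagGCGTGgccacacgtacaa
TIPARP, 208 bases before the start, chr3:156674370-156674399, plus strand: cgcgagaaaggaCACGCcccctcgcgggag
TIPARP, 142 bases before the start, chr3:156674436-156674465, plus strand: cgaacgaacgcgCACGCgcgcgcagggggc
AHRR, 30 bases before its first start, chr5:321672-321701, plus strand: ggcgggcggctcGCGTGccggggtggggca
AHRR, 247 bases before another start, chr5:322360-322389, plus strand: ggcGCGTGacaggcaggggccaccctctga
AHRR, 42 bases before that start, chr5:322556-322585, plus strand: gcagaagggtggGCGTGtgcgcgcgttctc
The longer form TNGCGTG, which contains the core, was found at the AHRR start called first above, and 4.52% of all windows held it. First means the first start matched here, chr5:321714. The matched AHRR starts lie inside the annotated gene, which begins at chr5:304176. The windows of AHR, ARNT and NQO1 held no core, nor did the other TIPARP windows. All 250 bases of the NQO1 window lie in exons annotated by GENCODE release 29. The same holds for the TIPARP window with the 2 cores. These 2 windows therefore lie inside the annotated genes and not before them. A form of the antioxidant response element through which NRF2 acts, TGACNNNGC, was searched on both strands as well and was present in 1 ARNT window and in 10.9% of all windows. These matches are letters in a window and not measured binding, and sites more than 250 bases before a start were not searched.

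AHR (ENSG00000106546, GRCh38 chr7:16916359-17346152, plus strand) was higher on each later day. It had 8.62, 6.76 and 8.98 CPM on day 0, 11.1, 10.5 and 11.3 CPM on day 3, and 18.6, 21.6 and 16.9 CPM on day 6. The 3 days did not overlap, and the day 6 libraries all lay above those of day 3. Day 6 was 2.34-fold above day 0 (log2 fold change 1.23, SE 0.13, adjusted p = 7.62e-06, edgeR's quasi-likelihood test with Benjamini-Hochberg adjustment over all genes tested) and 1.73-fold above day 3 (0.79, SE 0.12, adjusted p = 0.000759). The day 3 level was above day 0 by 0.43 on the log2 scale (SE 0.13, adjusted p = 0.0181 by edgeR), a call that was lost without day 3 replicate 1 (adjusted p = 0.053) or day 3 replicate 3 (adjusted p = 0.0587), in a range of 0.0146 to 0.0587 over its 17 alternatives. In the GENCODE release 29 annotation 29.4% of the exon bases of AHR also belong to the transcript gene AC019117.2 on the same strand, which has no row in the table.

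**Figure D1:**
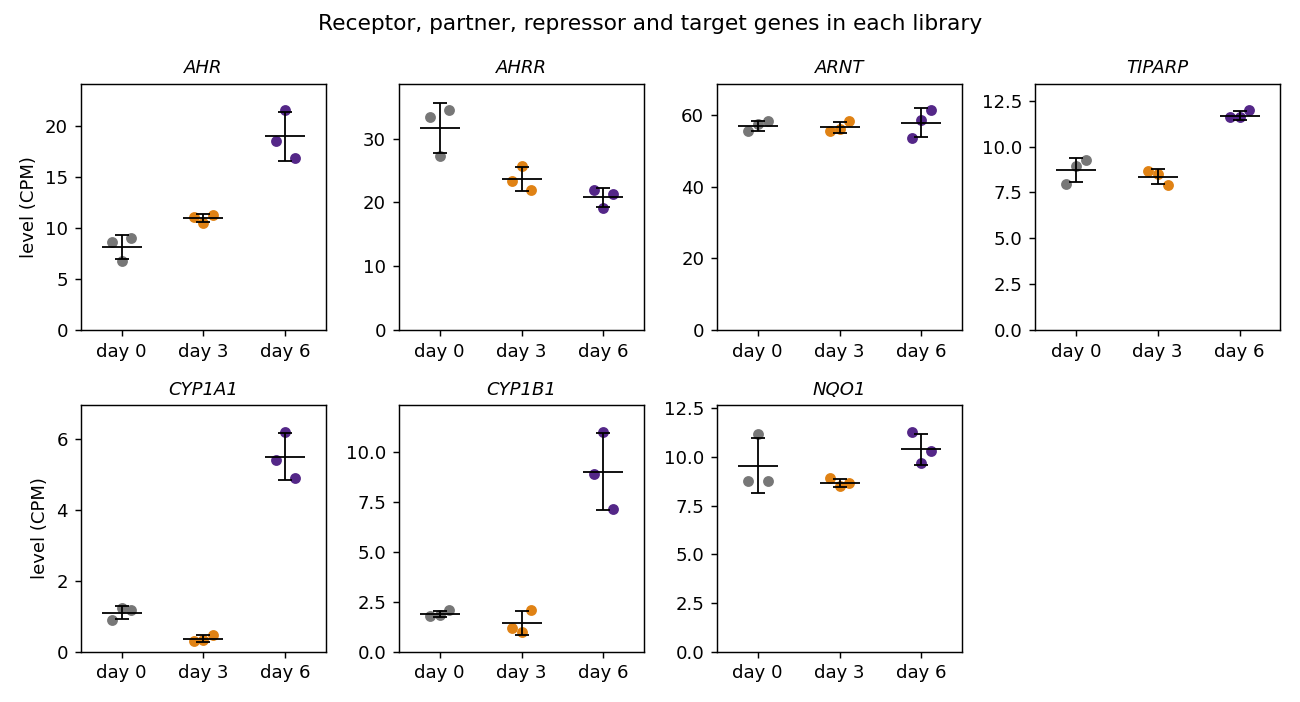
Levels of the 7 genes in CPM (vertical axis, linear from 0, one panel per gene) on day 0, day 3 and day 6 (horizontal axis). Points are the 3 libraries of a day, and black marks are means with bars of 1 SD. CYP1A1 and CYP1B1 have their highest libraries on day 6 and AHR is higher on each later day, while ARNT stays between 53.6 and 61.5 CPM in all 9 libraries.

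ARNT (ENSG00000143437, chr1:150809705-150876768, minus strand), the partner that AHR shares with the hypoxia-inducible factors, was level across the 9 libraries. It had 55.6, 57.5 and 58.3 CPM on day 0, 55.5, 56.1 and 58.4 CPM on day 3, and 53.6, 58.7 and 61.5 CPM on day 6. The days overlapped in each comparison, and the day 6 against day 0 difference was 0.02 on the log2 scale (SE 0.07, adjusted p = 0.828 by edgeR). Its relative ARNT2, which can pair with the same bHLH-PAS proteins and is best known in neurons, had 9.28, 6.25 and 8.32 CPM on day 0, 9.36, 9.27 and 9.92 CPM on day 3, and 38.3, 38.9 and 41.1 CPM on day 6. ARNT2 on day 6 was 4.94-fold above day 0 (log2 fold change 2.30, SE 0.12, adjusted p = 3.3e-08) and 4.15-fold above day 3 (2.05, SE 0.12, adjusted p = 5.81e-07, both by edgeR), while its day 3 and day 0 libraries overlapped. The ratio of ARNT2 to ARNT estimated counts averaged 0.139, 0.168 and 0.682 on days 0, 3 and 6.

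AHRR (ENSG00000063438, chr5:304176-438291, plus strand) moved the other way from AHR. It had 33.4, 27.3 and 34.5 CPM on day 0, 23.3, 25.7 and 22 CPM on day 3, and 22, 19.2 and 21.4 CPM on day 6. Day 6 and day 3 both lay below all 3 day 0 libraries. The log2 fold change was -0.61 on day 6 (SE 0.10, adjusted p = 0.000451) and -0.42 on day 3 (SE 0.10, adjusted p = 0.00747, both against day 0 by edgeR), and day 6 was not called against day 3 (-0.18, SE 0.11, adjusted p = 0.289). The estimated count of AHR per count of AHRR averaged 0.256 ± 0.00655 on day 0, 0.466 ± 0.0528 on day 3 and 0.921 ± 0.181 on day 6 (SD, n = 3 each).

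AHRR shares 244 exon bases, 3.18% of its exon length, with PDCD6, a calcium-binding protein gene that was chosen for mention after its values were seen. PDCD6 averaged 256.8 ± 26.1, 191.5 ± 5.27 and 162.3 ± 4.77 CPM on days 0, 3 and 6 (SD, n = 3 each). The ratio of AHRR to PDCD6 estimated counts averaged 0.125 ± 0.0267, 0.123 ± 0.00672 and 0.128 ± 0.00635 on days 0, 3 and 6, so the mean ratio moved by less than its SD between the days. The part of shared reads in the AHRR values was not tested.

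**Figure D2:**
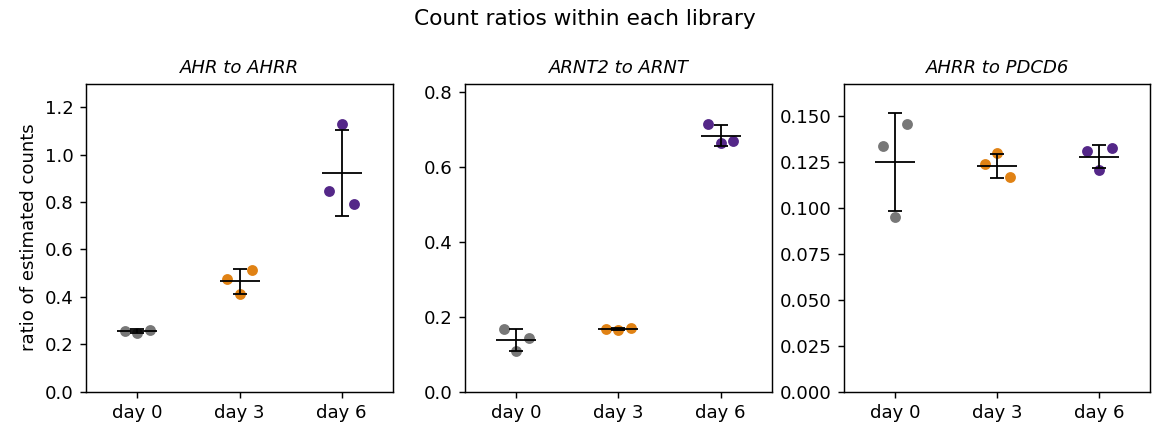
Ratios of estimated counts within each library (vertical axis, linear from 0) for AHR to AHRR, ARNT2 to ARNT and AHRR to PDCD6 on day 0, day 3 and day 6 (horizontal axis), with points for the 3 libraries of a day and black marks for means with bars of 1 SD. AHR to AHRR is higher on each later day and reaches 1.13 in 1 day 6 library, while AHRR to PDCD6 stays between 0.0953 and 0.146.

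CYP1A1 (ENSG00000140465, chr15:74719542-74725610, minus strand), whose promoter core is shown above, was lowest on day 3 and highest on day 6. It had 0.882, 1.23 and 1.18 CPM on day 0, 0.298, 0.335 and 0.478 CPM on day 3, and 5.42, 6.21 and 4.91 CPM on day 6. The estimated counts behind these levels were 27, 29 and 25, then 8, 10 and 11, then 161, 144 and 114. The 3 days did not overlap, with day 3 below day 0 and day 6 above both.

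Against day 3, CYP1A1 on day 6 was 14.9-fold higher (log2 fold change 3.90, SE 0.24, adjusted p = 8.93e-07), rank 33 of 15345 by p in that comparison. Against day 0, day 6 was 5.06-fold higher (2.34, SE 0.21, adjusted p = 2.28e-06), and day 3 was lower by a log2 fold change of -1.56 (SE 0.27, adjusted p = 0.00097, all by edgeR). From the pooled estimated counts of 81 on day 0, 29 on day 3 and 419 on day 6, the depth-scaled ratio of day 3 to day 0 was 0.339 with an exact 95% interval of 0.214 to 0.523, which covers counting error only. The ratio of day 6 to day 3 was 15.1, with an interval of 10.4 to 22.9.

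CYP1B1 (ENSG00000138061, chr2:38066973-38109902, minus strand) was also highest on day 6. It had 1.76, 1.83 and 2.07 CPM on day 0, 1.19, 0.97 and 2.09 CPM on day 3, and 8.88, 11 and 7.15 CPM on day 6. All day 6 libraries lay above the others, while day 3 and day 0 overlapped because 1 day 3 library lay just above the day 0 libraries. Day 6 was 4.78-fold above day 0 (log2 fold change 2.26, SE 0.24, adjusted p = 1.18e-05) and 6.46-fold above day 3 (2.69, SE 0.25, adjusted p = 1.78e-05, both by edgeR). Day 3 was not called against day 0 (-0.43, SE 0.28, adjusted p = 0.237), except without day 3 replicate 3, where it was called lower (adjusted p = 0.0313, in a range of 0.0313 to 0.602 over 17 alternatives). Of its exon bases 1.6% also belong to RMDN2, a gene whose pooled estimated counts were 3, 7 and 42 on days 0, 3 and 6, and 11.3% belong to the antisense gene CYP1B1-AS1. The strand setting of the counting is not given in the sources used here, so sense and antisense reads cannot be told apart.

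CYP1A2, the third gene of the CYP1 family and the neighbour of CYP1A1 on chromosome 15 (chr15:74748844-74756202, plus strand), is a liver enzyme of caffeine metabolism and was chosen for mention after its values were seen. It averaged 0.371 ± 0.0492, 0.461 ± 0.129 and 0.476 ± 0.073 CPM on days 0, 3 and 6 (SD, n = 3 each). None of its 3 comparisons was called by edgeR, with log2 fold changes of 0.35 for day 6 against day 0 (adjusted p = 0.423) and 0.06 for day 6 against day 3 (adjusted p = 0.935). These rest on 28, 36 and 36 pooled estimated counts, and the exact 95% interval of the day 6 to day 0 ratio ran between 0.755 and 2.17, below the whole interval of CYP1A1, 4.03 to 6.58.

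TIPARP (ENSG00000163659, chr3:156673235-156706770, plus strand) was level on day 3 and higher on day 6. It had 7.97, 8.93 and 9.26 CPM on day 0, 8.65, 8.53 and 7.92 CPM on day 3, and 11.6, 11.6 and 12 CPM on day 6. Every day 6 library was above every other library. Day 6 was 1.35-fold above day 0 (log2 fold change 0.43, SE 0.10, adjusted p = 0.00243) and 1.4-fold above day 3 (0.49, SE 0.10, adjusted p = 0.00401, both by edgeR), and day 3 against day 0 was -0.06 (SE 0.10, adjusted p = 0.686).

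NQO1 (ENSG00000181019, chr16:69706996-69726951, minus strand), a quinone reductase driven by both AHR and the oxidative stress factor NRF2, was not called in any comparison. It had 8.75, 11.2 and 8.75 CPM on day 0, 8.91, 8.5 and 8.65 CPM on day 3, and 11.3, 9.7 and 10.3 CPM on day 6. Day 0 replicate 2, the library that stood apart, was the high one of day 0 and overlapped day 6. The log2 fold change of day 6 was 0.13 against day 0 (SE 0.12, adjusted p = 0.371) and 0.27 against day 3 (SE 0.12, adjusted p = 0.156, both by edgeR). Without day 0 replicate 2 both were called higher, with adjusted p of 0.0433 (range over 17 alternatives 0.0433 to 0.743) and 0.036 (range 0.036 to 0.406). Of its exon bases 17.7% also belong to AC092115.2.

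**Figure D3:**
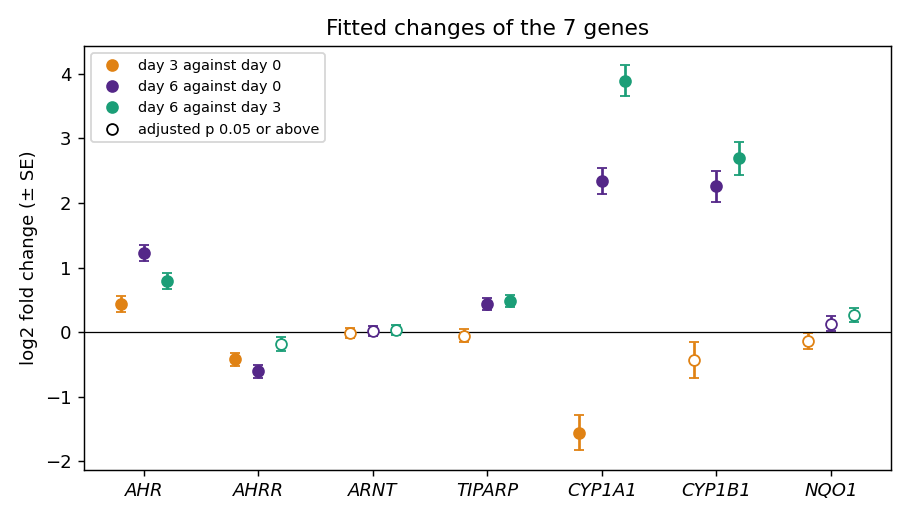
Log2 fold changes (vertical axis) of the 7 genes (horizontal axis) in the comparisons of days 6 and 3 with day 0 and of days 6 and 3 with each other, from the edgeR fit of all 9 libraries. Points are estimates, open where adjusted p was 0.05 or above, and bars are 1 SE to each side. CYP1A1 is the one gene with a called change in opposite directions, -1.56 on day 3 and 2.34 on day 6 against day 0.

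Of the 7 genes, 4 were called higher and 1 lower on day 6 against day 0, where 28.9% of the genes tested were called higher and 25.7% lower. On day 6 against day 3, 4 were called higher and none lower, where 11.5% of genes were called higher and 4.76% lower by the same edgeR test. The count of 0 lower was also 0 at an unadjusted p under 0.05 and by DESeq2 and limma-voom. On day 3 against day 0, 1 was called higher and 2 lower, where 22.5% were called higher and 18.1% lower. The libraries did not overlap for 5 of the 7 genes on day 6 against day 0, where this held for 58.7% of genes. The same was true of 6 on day 6 against day 3, with 43.5% of genes, and of 3 on day 3 against day 0, with 53.8% of genes. Because the genes were chosen with results from this table known, nothing is read from these counts. The 3 comparisons share their libraries and are not independent of each other.

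Per kilobase of exon, which allows levels to be set between genes, ARNT had the highest level on each day, at 8.77, 8.7 and 8.89 CPM per kilobase on days 0, 3 and 6. On day 0 the order below it was AHRR (4.13 ± 0.508), NQO1 (2.94 ± 0.432), TIPARP (1.73), AHR (1.01), CYP1A1 (0.319 ± 0.0549) and CYP1B1 (0.314 ± 0.0267), and the last 2 differed by less than their SD. On day 6 it was NQO1 (3.21 ± 0.243), AHRR (2.71 ± 0.191), AHR (2.35 ± 0.298), TIPARP (2.33 ± 0.0476), CYP1A1 (1.6 ± 0.19) and CYP1B1 (1.5 ± 0.32), in CPM per kilobase with the SD of 3 libraries. AHR and TIPARP on day 6, and likewise CYP1A1 and CYP1B1, differed by less than their spread. The kilobases are those of all annotated exons joined, not of the transcript in use.

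Genes averaging 5 CPM or more numbered 11041, and those whose log2 CPM followed a given gene most closely over the 9 libraries were named as a description, since all points share the day of sampling. AHR was followed most closely by ILDR2 (Pearson r = 0.993), TENM1 (0.986) and DOCK5 (0.982). CYP1A1 was closest to S100A2 (0.974), IKZF2 (0.97) and LRP12 (0.968), and CYP1B1 to SPON1 (0.971), SLITRK2 (0.971) and RABL2B (0.954). The day 3 low of CYP1A1 was shared by S100A2, a calcium-binding protein of squamous epithelium, which averaged 5.04 ± 0.879, 3.48 ± 0.154 and 7.7 ± 0.327 CPM on days 0, 3 and 6 (SD, n = 3 each). AHRR was closest to FTSJ3 (0.99), NOP14 (0.987) and BRD2 (0.986), and TIPARP to CD6 (0.977), RPL23AP82 (0.971) and IGF2BP2 (0.962).

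The cytosolic complex that holds the receptor was lower in its chaperones. Of 5 genes, 3 were called lower and 2 higher on day 6 against day 0, with a median log2 fold change of -0.49 beside 0.01 for all genes tested. Of all genes tested, 25.7% were called lower and 28.9% higher in that comparison. HSP90AA1, the inducible HSP90, averaged 1640 ± 200.3 CPM on day 6 and 3085 ± 246.6 CPM on day 0 (SD, n = 3 each), a log2 fold change of -0.91 (SE 0.10, adjusted p = 1.5e-05 by edgeR). HSP90AB1 (-0.49) and PTGES3 (-0.66) were called lower too. Day 3 against day 0 already gave 3 lower and 1 higher, where 18.1% of all genes were called lower and 22.5% higher. Between day 6 and day 3, 0 genes of the complex were called by edgeR, where 11.5% of all genes were higher and 4.76% lower. This was also 0 at an unadjusted p under 0.05 and by DESeq2 and limma-voom.

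The bHLH-PAS relatives of AHR include the hypoxia and neuronal factors that compete for the same partners. Of 15 listed, 11 were tested, and 6 were called higher and 3 lower on day 6 against day 0 (median log2 fold change 0.25, beside 0.01 for all genes). The shares of all genes tested were 28.9% higher and 25.7% lower. EPAS1, the hypoxia factor HIF-2 alpha, had 15.6, 16.1 and 17.8 CPM on day 0, 38.3, 39.6 and 39.4 CPM on day 3, and 50.4, 53.9 and 60.8 CPM on day 6. Its days did not overlap, and day 6 was 3.34-fold above day 0 (log2 fold change 1.74, adjusted p = 2.61e-08 by edgeR). NPAS1, a neuronal repressor, averaged 3.41 ± 0.304 CPM on day 6 and 0.761 ± 0.0891 CPM on day 0 (SD, n = 3 each).

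**Figure D4:**
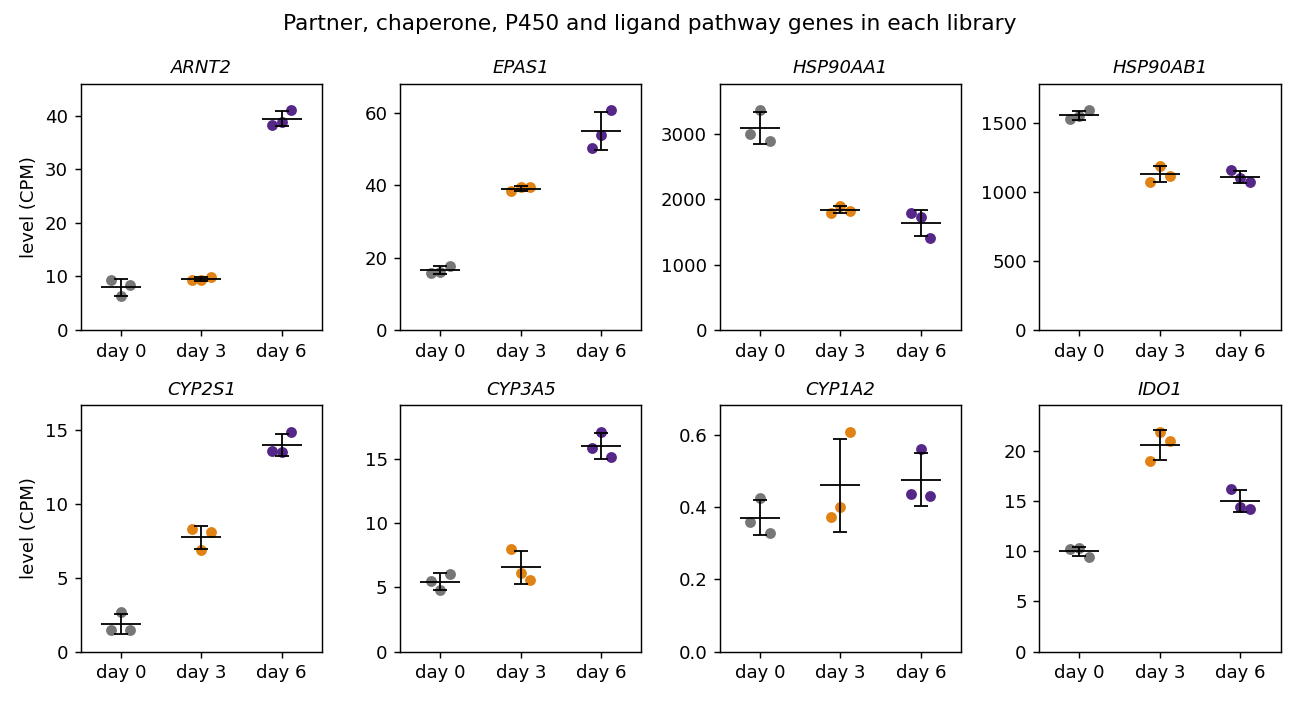
Levels in CPM (vertical axis, linear from 0, one panel per gene) of genes named beside the receptor on day 0, day 3 and day 6 (horizontal axis), with points for the 3 libraries of a day and black marks for means with bars of 1 SD. ARNT2 is near its day 0 level on day 3 and at 38.3 to 41.1 CPM on day 6, while EPAS1 is already above its day 0 level on day 3.

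The coregulators through which AHR acts on chromatin were called lower for 8 of 15 tested genes and higher for 1 on day 6 against day 0, with a median of -0.23. The shares of all genes tested were 25.7% lower and 28.9% higher. The lower ones included RB1, the retinoblastoma protein, at 147.3 ± 14 CPM on day 6 and 220.7 ± 23.8 CPM on day 0 (log2 fold change -0.58, adjusted p = 0.000268 by edgeR), and the coactivator NCOA2 (-0.42). With library size as the only scaling the list gave 3 lower and 2 higher.

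Of 30 other genes known as AHR targets in 1 or more tissues, 21 were tested, and 8 were called higher and 4 lower on day 6 against day 0 (median 0.22). The shares of all genes tested were 28.9% higher and 25.7% lower, and nothing is read from these counts. The 4 lower were SCIN (log2 fold change -0.62), VAV3 (-0.45), NFE2L2 (-0.34) and RUNX2 (-0.26). SCIN, VAV3 and RUNX2 were named after their values were seen. NFE2L2 is also in the list of NRF2 regulators, so the 2 lists are not independent. CYP2S1, an epithelial P450, had 1.5, 2.68 and 1.5 CPM on day 0, 8.28, 6.86 and 8.09 CPM on day 3, and 13.6, 13.5 and 14.9 CPM on day 6. The days did not overlap, and day 6 was 7.42-fold above day 0 (log2 fold change 2.89, SE 0.19, adjusted p = 1.69e-07 by edgeR). HES1, a repressor driven by Notch as well, averaged 45.2 ± 5.12 CPM on day 6 and 13.4 ± 3.05 CPM on day 0 (1.76, adjusted p = 1.71e-06). ASB2, a ubiquitin ligase subunit, had 1 pooled estimated count on day 0, 35 on day 3 and 225 on day 6. The ratio of day 6 to day 0 was 223 with an exact 95% counting interval of 39.6 to 8840. ASB2 passed the filter on low counts only through its day 6 libraries, so it could hardly be called lower.

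PTGS2, the inducible cyclooxygenase and another gene of this list, was singled out after its values were seen because it shared the order of CYP1A1. It averaged 5.54 ± 0.291, 3.06 ± 0.179 and 6.29 ± 0.489 CPM on days 0, 3 and 6 (SD, n = 3 each). Day 3 was lower than day 0 (log2 fold change -0.86, adjusted p = 0.000319) and day 6 was higher than day 3 (1.04, adjusted p = 0.000135), while day 6 was not called against day 0 (0.18, adjusted p = 0.215, all by edgeR).

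The NRF2 targets, which NQO1 belongs to, went both ways. Of 35 listed, 28 were tested, and 4 were called higher and 8 lower on day 6 against day 0 (median -0.02), a balance that turned to 7 higher and 3 lower with library size as the only scaling. AKR1B1, an aldose reductase, averaged 7.36 ± 1.08 CPM on day 6 and 0.531 ± 0.134 CPM on day 0 (log2 fold change 3.75, adjusted p = 7.51e-08 by edgeR). AKR1B10, also among those called higher, passed the filter on low counts only through its day 6 libraries. GCLC, the catalytic subunit that starts glutathione synthesis, was lower on day 6, at 325 ± 20.8 CPM, than on day 0, at 486.6 ± 87.1 CPM (-0.58, adjusted p = 0.00083). NFE2L2, which encodes NRF2, averaged 118.6 ± 5.75 CPM on day 6 and 150.1 ± 28.5 CPM on day 0, with 182.6 CPM in day 0 replicate 2. Its call (log2 fold change -0.34, adjusted p = 0.0226 by edgeR) was lost under 4 of 17 alternatives, where adjusted p reached 0.0906. KEAP1, the adaptor that marks NRF2 for degradation, was not called (-0.15, adjusted p = 0.131 by edgeR), except without day 0 replicate 2 (adjusted p = 0.032, in a range of 0.032 to 0.723). Of the 8 regulators of NRF2 tested, 1 was called higher and 2 lower on day 6 against day 0. Beside both NRF2 lists, 28.9% of all genes tested were called higher and 25.7% lower, and nothing is read from these counts.

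The kynurenine pathway makes AHR ligands out of tryptophan. Of 15 enzymes and amino acid transporter subunits listed, 11 were tested, and 6, among them the transporter subunit SLC3A2 (log2 fold change 0.22), were called higher and none lower on day 3 against day 0 (median 0.30), with 4 higher and 1 lower on day 6 against day 0 (median 0.10). The count of 0 lower on day 3 by edgeR was 0 as well at an unadjusted p under 0.05, by DESeq2 and by limma-voom. Of all genes tested, 22.5% were called higher and 18.1% lower on day 3, and 28.9% and 25.7% on day 6, against day 0. IDO1, the first enzyme, had 10.2, 10.3 and 9.45 CPM on day 0, 19, 21.9 and 21 CPM on day 3, and 16.2, 14.4 and 14.2 CPM on day 6. The days did not overlap and day 3 was the highest, when CYP1A1 was lowest. The log2 fold change of IDO1 was 1.04 on day 3 against day 0 (adjusted p = 9.46e-06) and -0.46 on day 6 against day 3 (adjusted p = 0.00435, both by edgeR). AADAT, which makes kynurenic acid, averaged 17.8 ± 0.61 CPM on day 6 and 11.4 ± 0.971 CPM on day 0 (0.65, adjusted p = 8.47e-05).

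The list of cytochrome P450 genes outside the CYP1 members, enzymes of foreign compound metabolism and others, was called in 1 direction. It shares CYP2S1 with the list of other AHR targets, so the 2 lists are not independent. Of 34 listed, 19 were tested, and 11 were called higher and none lower on day 6 against day 0 (median 0.97, beside 0.01 for all genes). Of all genes tested, 28.9% were called higher and 25.7% lower. CYP4F2 and CYP4F22 passed the filter on low counts only through their day 6 libraries, so they could hardly be called lower. Part of the 11 and of the median therefore came with the filter. Genes of the other lists with few counts before day 6, such as ASB2 and AKR1B10, share this limit. The list also gave 4 higher on day 3 against day 0 and 8 higher on day 6 against day 3, with none lower by edgeR. The shares of all genes called higher were 22.5% and 11.5%, and those called lower 18.1% and 4.76%. At an unadjusted p under 0.05, 1 gene was lower on day 6 against day 0 and 0 in the other comparisons, and DESeq2 and limma-voom called 0 lower. CYP3A5, the extrahepatic CYP3A enzyme, had 5.46, 4.76 and 6.07 CPM on day 0, 8.02, 6.09 and 5.61 CPM on day 3, and 15.8, 17.1 and 15.1 CPM on day 6. Its day 6 libraries lay above all others, 2.95-fold above day 0 (log2 fold change 1.56, adjusted p = 2.88e-06 by edgeR). CYP2W1, known from colorectal tumours, averaged 39 ± 5.06 CPM on day 6 and 23.5 ± 0.223 CPM on day 0. CYP4F22, of the skin's ceramide synthesis, had 92 pooled estimated counts on day 6 and 0 on day 0, and CYP4F2, a vitamin K oxidase, had 55 on day 6 and 1 on day 0, both named after their values were seen. The 5 proteins that pass electrons to P450 enzymes gave 1 called higher and 1 lower.

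**Figure D5:**
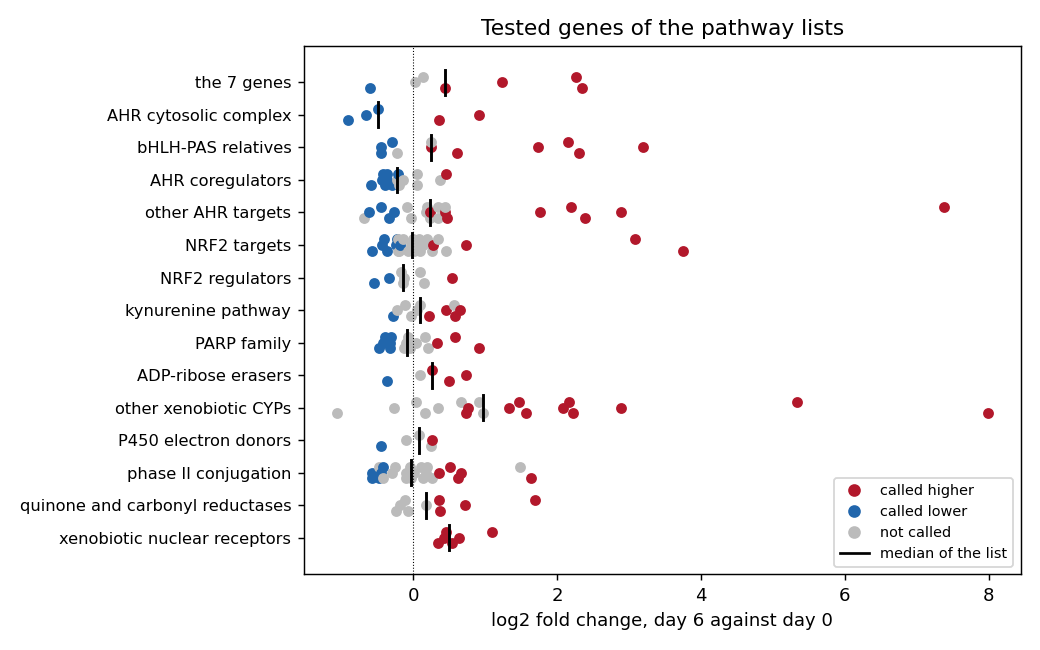
Log2 fold changes on day 6 against day 0 (horizontal axis) of the genes tested in each list, one row per list, with red points for genes called higher, blue for lower, grey for not called and a black line for the median. The points past 5 are ASB2, CYP4F2 and CYP4F22, whose day 0 counts were 1 or 0, so their fitted values are no bounds. The P450 list has a median of 0.97, and the cytosolic complex one of -0.49. ASB2, CYP4F2, CYP4F22 and the NRF2 target AKR1B10 passed the filter on low counts only through their day 6 libraries.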

How the data were processed

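The authors deposited 1 table of estimated counts per gene for the 9 libraries. Per the submitters' processing notes, DESeq2 (no version), bcl2fastq 2.19 and kallisto 0.44.0 were used, with the builds GRCh38, GRCm38 and hg38 named without a role. Per the labels' protocols, RNA was extracted with TRIzol, selected by poly-A and made into Illumina TruSeq libraries. The deposited estimated counts were already whole numbers, so rounding changed 0 values. kallisto shares reads among similar transcripts, so counts of overlapping genes are uncertain.

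Genes were kept by filterByExpr (minimum count 10). A single edgeR 4.0.16 quasi-likelihood model (R 4.3.3, TMM scaling) was fitted to all 9 libraries, with Benjamini-Hochberg adjustment over the 15345 genes tested and a threshold of 0.05. The SE is the absolute log2 fold change divided by the square root of F. CPM use TMM-scaled library sizes, and log2 CPM for correlations use a prior count of 2. Alternatives were median-ratio size factors (edgeR's RLE method) in the edgeR fit, DESeq2 1.42.0 with its own size factors and test, and limma-voom (limma 3.58.1). Library size only, no filter or a mean of 1 CPM, and the 2 days compared alone were used too. So were the replicate block, adjusted p under 0.01, and each library left out.

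The 7 genes and all 20 other lists were chosen with earlier results of these data known. Named genes were the members, up to 3 called genes of lowest p on day 6 against day 0 per list, NFE2L2, KEAP1, ARNT2 and 1 gene not reported here, and the 3 closest genes by correlation per called member. Gene models are GENCODE release 29 (GRCh38), and promoters are from RefSeq (GRCh38.p14).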

Additional observations from a re-analysis of the deposited data

How the results depend on the processing

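The 7 genes gave 357 fold changes under alternatives, of which 351 kept their side of the threshold, 2 lost the call and 4 gained one. Direction was compared only where a call was made, and 0 of those reversed. Uncalled changes near 0 could change sign, as for ARNT on day 6 against day 0, between -0.04 and 0.14. The 6 that changed are AHR on day 3, CYP1B1 on day 3 and NQO1, whose values stand in the report, and NQO1 on day 6 against day 3 with only those days fitted, where it was called higher. The cause was not tested. With the replicate block the number of the 7 genes called was 3 on day 3 and 5 on day 6 against day 0 and 4 on day 6 against day 3, the same genes as without it. The replicate numbers were not taken to pair the libraries, because deviations of same-numbered libraries correlated between -0.153 and 0.209, with 4 of 9 pairs over 0.1. Library size as the only scaling moved the median log2 fold change of all genes to 0.13 on day 6 against day 0, against 0.01 with TMM, and the share of calls that were higher to 66.6% against 53%. On day 3 against day 0 that share was 69.2% against 55.3%. Over all genes, the calls on day 6 against day 3 were 1766 higher and 731 lower, but 2591 and 2090 without day 0 replicate 2, 2507 and 1824 with only those days fitted, and 1159 and 285 at adjusted p under 0.01. Without 1 of the day 3 or day 6 libraries the lower calls were 348 to 485. Lower calls on day 3 against day 0 numbered 2780, but 1825 with library size only, 1846 without day 3 replicate 1 and 1471 at adjusted p under 0.01. Of 2160 counts of called genes in lists under alternatives, 1856 were within 1.5 times the reported count. Depth limits the genes with few counts on a day, such as ASB2 with 1 and CYP4F22 with 0 pooled counts on day 0.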

Other observations

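The nuclear receptors that sense fats and foreign compounds beside AHR were called higher for all 6 tested genes of 11 listed on day 6 against day 0. In that comparison 28.9% of all genes tested were called higher. The list had a median log2 fold change of 0.50, and NR1I2, the pregnane X receptor, was at 0 in all 9 libraries. PPARA, the fatty acid receptor, averaged 37.2 ± 2.67 CPM on day 6 and 17.5 ± 3.59 CPM on day 0 (SD, n = 3 each, log2 fold change 1.09, adjusted p = 2.97e-05 by edgeR). Its partners RXRA (0.63) and RXRB (0.46) were called higher as well. On day 6 against day 3, 0 of the 6 were called by edgeR, 0 at an unadjusted p under 0.05 and 0 by DESeq2 or limma-voom. Of all genes tested, 11.5% were called higher and 4.76% lower by edgeR in that comparison, and nothing is read from the 0 of 6.

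Of 9 quinone and carbonyl reductases other than NQO1, 4 were called higher and none lower on day 6 against day 0 by edgeR, with 1 lower at an unadjusted p under 0.05 and 0 by DESeq2 or limma-voom. NQO2, the paralogue of NQO1, averaged 11.6 ± 1.79 CPM on day 6 and 7.01 ± 0.28 CPM on day 0 (log2 fold change 0.72, adjusted p = 0.000397), and CBR3, a carbonyl reductase, averaged 6.85 ± 0.896 CPM on day 6 and 2.14 ± 0.74 CPM on day 0 (1.69, adjusted p = 5.75e-05). Conjugating enzymes went both ways, with 5 called higher and 5 lower of 25 tested, in both directions below the shares of all genes. Those shares, 28.9% higher and 25.7% lower, also stand beside the reductase, PARP and ADP-ribose lists of this paragraph. Among the PARP family, to which TIPARP belongs, 3 of 16 were called higher and 6 lower on day 6 against day 0, though library size as the only scaling gave 5 higher and 4 lower. ZC3HAV1, an antiviral member, averaged 88.9 ± 3.92 CPM on day 6 and 123.9 ± 6.23 CPM on day 0 (-0.48, adjusted p = 0.000132). Of 5 enzymes that remove ADP-ribose, MACROD1 (0.49) and MACROD2 (0.72) were among the 3 called higher, and PARG (-0.36) was the 1 called lower.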
